A study of Mus musculus with 24 samples.

Results

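The genes described here encode secreted cytokines of the interleukin-6 (IL-6) family, the receptor chains they signal through, and the feedback inhibitor Socs3. They were chosen by gene name, and 9 of the 45706 genes in the deposited gene table carry those names. They are the ligands Lif, Il6, Il11 and Clcf1, the receptor chains Il6st, Il6ra, Lifr and Osmr, and Socs3. All 9 passed the filter on low counts that 17233 genes passed. RNA had been sequenced from MEFs, primary fibroblasts obtained from mouse embryos, whose strain is labelled C57B1/6. The cells were either wild type (WT) or cGAS KO (KO), lacking the cytosolic DNA sensor cGAS, and both had been passaged under 20% oxygen. RNA was taken on day 33 (passage 11), day 36 (passage 12) and day 42 (passage 14), which made 6 groups, and the labels name no drug or added cytokine. The labels do not say whether the days were separate cultures, how many embryos gave each culture, or how the KO allele was made.

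Cytokines of the IL-6 family signal through a shared receptor chain, gp130, which Il6st encodes. IL-6 and IL-11 first bind their own receptor chains, IL-6R and IL-11R. LIF (leukemia inhibitory factor) joins gp130 to the LIF receptor chain (Lifr), and oncostatin M joins gp130 to its own chain (Osmr). CLCF1 binds the CNTF receptor chain Cntfr. JAK kinases on these receptors activate the transcription factor STAT3, which induces Socs3, an inhibitor that blocks further signalling from gp130. In senescent fibroblasts IL-6 is a well known part of the secreted mixture of cytokines, chemokines and proteases.

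Each genotype and day had 4 columns, numbered rep1 to rep4 in the labels, which differed by less than the sampling noise (mean chi-square per degree of freedom 0.832 to 0.843) and were counted as 1 sample. This left 6 libraries of 25651250 to 48717439 counts, with n = 1 per genotype and day and n = 3 per genotype, the days serving as replicates. The labels name no separate cultures or animals, so the p-values measure no more than how these 3 libraries per genotype spread. That spread takes in changes between the days, and the rest of it may be technical. Levels are CPM, which are counts per 1e6 scaled library counts. Fold changes compare KO with WT on the log2 scale and carry their SE. Mb21d1, which encodes cGAS, was at 4.08 to 4.82 CPM in the WT libraries and 0 to 0.239 CPM in the KO libraries. Xist, transcribed from the inactive X chromosome of female cells, was at 0.0573 to 0.363 CPM in WT and 465 to 641 CPM in KO, and the Y-linked gene Uty was at 29.9 to 32.0 and 2.69 to 2.91 CPM, so that genotype and the sex makeup of the cultures cannot be told apart. The 10 fibroblast markers summed to 21153 to 29565 CPM, with 0 markers at 0 counts in any library. Their median log2 fold change was -0.95, with 0 of 10 called by edgeR, 6 of 10 at an unadjusted p below 0.05 (27.3% of all genes) and 4 of 10 called by DESeq2 (16.6% of all genes), all 4 lower. The part of this difference in the results below was not tested. The 5 skeletal muscle markers summed to 203 to 656 CPM, of which Acta1, skeletal muscle actin, made up most at 202 to 653 CPM, while Myod1, a defining factor of muscle cells, had 0 counts in all 6 libraries.

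Of the 9 genes, Lif rose and Il6ra fell in KO, and 7 were not called over the 3 days (edgeR's quasi-likelihood test, adjusted p below 0.05 over all 17233 genes). Of all genes tested, 8.72% were called, 4.07% higher and 4.65% lower. The 9 genes had a median log2 fold change of -0.03, against -0.01 for all genes tested. For Lif, Clcf1 and Il6ra the WT and KO ranges were apart, 3 of 9 genes, against 34.3% of all genes tested, so the share among the 9 was near the background.

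**Figure D1:**
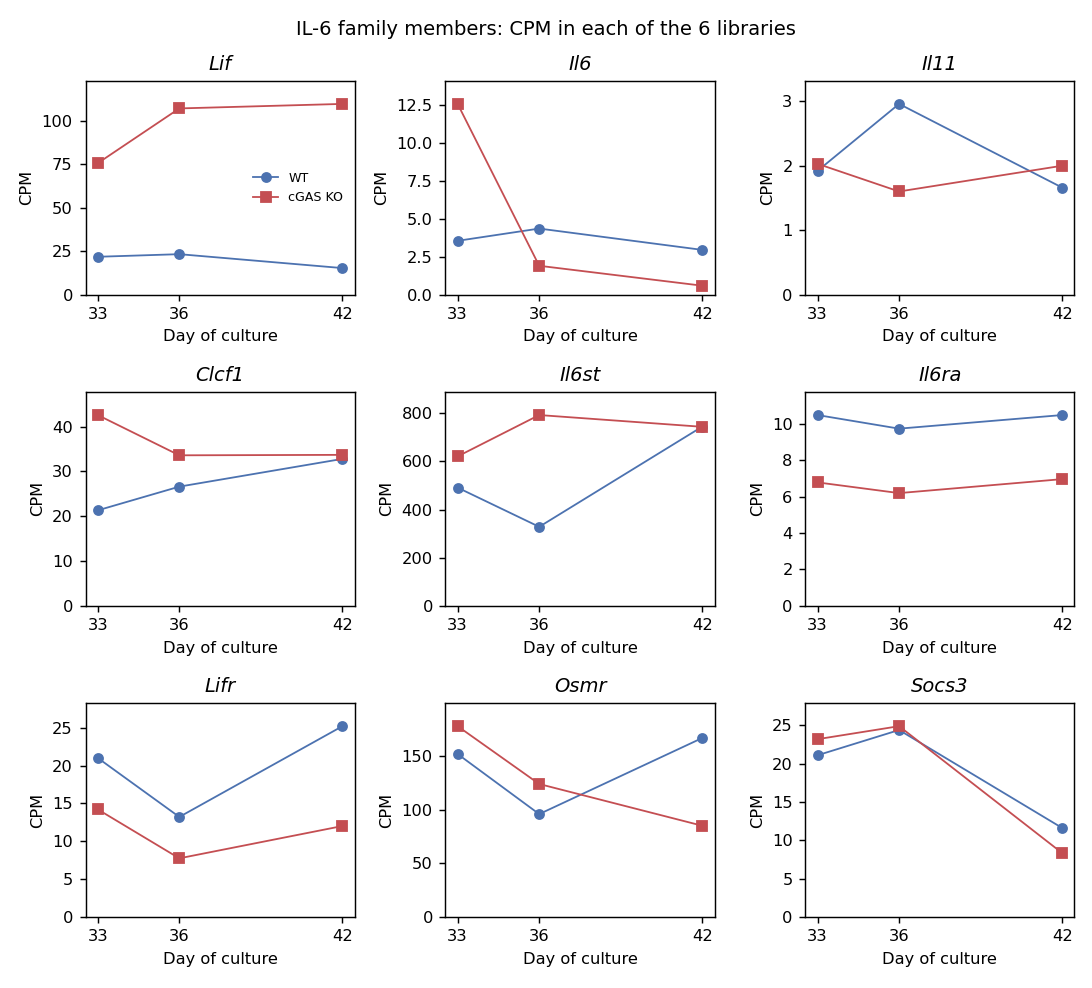
CPM (vertical axis, from 0) of each gene against the day of culture in the 3 WT libraries (circles) and the 3 cGAS KO libraries (squares); each point is 1 library and the lines only join points of a genotype. Lif lay at 75.5 to 109.6 CPM in KO against 15.2 to 23.2 CPM in WT, Il6ra was lower in KO on each day, and Il6 in KO went from 12.6 to 0.583 CPM.

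Among the ligands, Lif differed the most between genotypes. Lif (ENSMUSG00000034394, chromosome 11, 4257556 to 4272514, plus strand, mm10) encodes a cytokine known for keeping mouse embryonic stem cells undifferentiated. Its level in WT was 21.7, 23.2 and 15.2 CPM on days 33, 36 and 42, from 1015, 1013 and 529 counts. In KO it was 75.5, 107 and 109.6 CPM, from 2523, 2872 and 4321 counts. The lowest KO library was thus above the highest WT library, and KO was high on each day. The means ± SD were 20.0 ± 4.28 CPM in WT and 97.4 ± 19.0 CPM in KO (n = 3 each), a ratio of 4.87. Lif rose by 2.28 ± 0.22 on the log2 scale (edgeR adjusted p = 0.00857). Leaving out KO day 36 ended the call (2.21, adjusted p = 0.0613). In that fit 24 of 17708 genes were called, against 1503 of 17233 with all 6 libraries. The call was kept without each of the other 5 libraries, over which the adjusted p ran from 0.00834 to 0.0478.

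On single days the ratio of Lif in KO to WT was 3.48 on day 33 (exact 95% interval 3.24 to 3.75), 4.61 on day 36 (4.29 to 4.96) and 7.23 on day 42 (6.60 to 7.92). These intervals cover counting error only, and each day has 1 library per genotype. The ratio was higher on each later day, with the WT level lowest on day 42 and the KO level lowest on day 33. In WT, the level on day 42 was 0.70 times that on day 33 (interval 0.629 to 0.778). In KO it was 1.45 times (1.38 to 1.53). The difference between genotypes in the change per day was 0.11 ± 0.04 (log2 per day, KO minus WT), with an unadjusted p of 0.0359 and an adjusted p of 0.627 by edgeR.

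The 250 bases before the RefSeq start sites of Lif, Il6 and Socs3 are shown because Lif and Il6 parted over the days while Socs3 is the pathway's feedback gene. RefSeq windows of build GRCm38.p6 were matched by symbol for 8 of the 9 genes. Both strands were searched for 6 motifs. The motif of STAT factors was spelled TTCNNNGAA. That of AP-1 was spelled TGANTCA. The cAMP response element (CRE) was spelled TGACGTCA. The TATA box was spelled as TATAAA. The motif of C/EBP factors was spelled TTGCNNAA, and that of NF-kB was spelled GGGRNNYYCC. In these letters N is any base, R is A or G and Y is C or T. Each sequence is on the strand of its gene, 5′ to 3′, and capitals mark every match.
Lif, chr11:4257318-4257567, plus strand: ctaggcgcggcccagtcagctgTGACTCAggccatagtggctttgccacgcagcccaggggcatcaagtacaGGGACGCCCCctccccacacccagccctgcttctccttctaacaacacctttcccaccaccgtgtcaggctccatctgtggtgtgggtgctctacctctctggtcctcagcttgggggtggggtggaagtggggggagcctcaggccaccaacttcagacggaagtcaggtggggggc
Il6, chr5:30012864-30013113, plus strand: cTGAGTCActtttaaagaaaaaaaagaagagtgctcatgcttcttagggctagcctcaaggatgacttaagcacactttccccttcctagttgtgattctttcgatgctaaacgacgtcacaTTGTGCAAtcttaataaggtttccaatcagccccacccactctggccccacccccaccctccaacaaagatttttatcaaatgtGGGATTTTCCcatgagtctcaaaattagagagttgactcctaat
Socs3, chr11:117969367-117969616, minus strand: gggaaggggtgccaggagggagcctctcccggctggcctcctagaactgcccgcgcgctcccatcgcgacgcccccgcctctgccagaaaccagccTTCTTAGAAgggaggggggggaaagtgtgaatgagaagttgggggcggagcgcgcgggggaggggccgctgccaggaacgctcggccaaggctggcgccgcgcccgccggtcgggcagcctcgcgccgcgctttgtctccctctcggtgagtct

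In the Lif window the AP-1 motif matched at TGACTCA, 228 bases before the start, and the NF-kB motif at GGGACGCCCC, 178 bases before it. In the Il6 window the AP-1 motif matched with TGAGTCA, 249 bases before the start. The C/EBP motif matched on the opposite strand at TTGTGCAA, 128 bases before it, and the NF-kB motif with GGGATTTTCC, 44 bases before it. The Socs3 window held 1 STAT match, TTCTTAGAA, 154 bases before the start. The RefSeq start of Socs3 lies 681 bases inside the deposited gene model, so that this window falls within that model, while the starts of Lif and Il6 lie 12 and 1 bases from theirs. No match overlapped another, and the other 5 windows (Il11, Il6st, Il6ra, Lifr and Osmr) held no match to any of the 6 motifs. The RefSeq start of Osmr lies 656 bases inside the deposited gene model, so the Osmr window also falls within its model. Of 32851 RefSeq windows of this length, 7.02% held the STAT motif, 6.75% AP-1, 1.55% CRE, 12.4% TATA, 9.56% C/EBP and 7.25% NF-kB. Lif and Il6 thus each held AP-1 and NF-kB matches, and a match is a description of these letters only.

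Il6 (ENSMUSG00000025746, chromosome 5, 30013113 to 30019597, plus strand) encodes interleukin-6 itself and was a low transcript in these cells. In WT it stayed between 2.95 and 4.36 CPM, with 3.55, 4.36 and 2.95 CPM on days 33, 36 and 42 (166, 190 and 103 counts). In KO it was at 12.6, 1.90 and 0.583 CPM (420, 51 and 23 counts). The KO library of day 33 was the highest of the 6 and those of days 36 and 42 were the lowest, so the genotypes overlapped. KO stood 3.54-fold above WT on day 33 (interval 2.95 to 4.27), at 0.437 times WT on day 36 (0.314 to 0.598) and at 0.198 times WT on day 42 (0.12 to 0.313). Within KO, Il6 on day 42 was 0.0464 times its day 33 level (interval 0.0291 to 0.0706), against 0.833 times within WT (0.645 to 1.07).

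Over the 3 days Il6 had a log2 fold change of 0.47 ± 0.97 (edgeR adjusted p = 0.799). This estimate turned to -1.57 without the KO library of day 33, and with all 6 libraries it was -0.62 by limma-voom and -0.49 with day as a factor in edgeR. The change per day differed between genotypes by -0.45 ± 0.11 (log2 per day, KO minus WT), with an unadjusted p of 0.0109 and an adjusted p of 0.609 by edgeR. By DESeq2's likelihood ratio test the same term was called for Il6 (-0.44, adjusted p = 0.0325), 1 of the 9 genes, beside 0.749% of all genes. By edgeR the term was called for 0 of the 9 genes and for 0% of all 17233. Unadjusted edgeR p-values of this term lay below 0.05 for Lif, Il6 and Clcf1, 3 of 9, against 7.74% of all genes. The fit leaves 2 residual degrees of freedom.

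Macrophages are a known source of IL-6, and their markers were present at low levels that also fell over the days. Summed over 10 macrophage markers, the level was 119, 29.0 and 10.3 CPM in WT and 56.0, 8.55 and 6.90 CPM in KO on days 33, 36 and 42. Their part in the fall of Il6 in KO was not tested. Adgre1, which encodes the macrophage surface protein F4/80, measured 7.65, 1.49 and 0.0573 CPM in WT against 3.29, 0.0373 and 0 CPM in KO. Lyz2 made up a large part of the day 33 sums, at 69.7 CPM in WT and 28.2 CPM in KO. By day 42 Lyz2 was at 1.66 and 0 CPM. In KO, Cd14, Ptprc and Cd68 fell less, from 4.88, 2.66 and 2.99 CPM on day 33 to 2.08, 1.77 and 1.27 CPM on day 42. With Csf1r at 1.72 CPM, they made up most of the KO sum on day 42. The sum is thus no even measure of macrophages over the days. Of the 10 markers, 2 were at 0 in WT and 5 in KO on day 42, and 0 in the libraries of days 33 and 36. In bulk libraries, fewer cells of a type and less RNA per cell cannot be told apart.

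Clcf1 (ENSMUSG00000040663, chromosome 19, 4214237 to 4223490, plus strand) encodes a ligand of the CNTF receptor. On days 33, 36 and 42 the WT libraries held 21.3, 26.6 and 32.8 CPM and the KO libraries 42.6, 33.6 and 33.7 CPM. The values did not overlap, but the WT library of day 42 lay just below the KO libraries of days 36 and 42. The KO to WT ratio was 2.0 on day 33 (interval 1.85 to 2.18), 1.26 on day 36 (1.16 to 1.38) and 1.03 on day 42 (0.95 to 1.11). Over the 3 days the log2 fold change was 0.45 ± 0.18 (edgeR adjusted p = 0.173), which did not pass the test. The change per day differed by -0.10 ± 0.03 (unadjusted p = 0.0169, adjusted p = 0.626 by edgeR).

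Il11 (ENSMUSG00000004371, chromosome 7, 4773054 to 4782857, minus strand) encodes interleukin-11, a cytokine known from fibroblasts activated by TGF-beta. It measured 1.92, 2.96 and 1.66 CPM in WT against 2.03, 1.6 and 2.0 CPM in KO, from 43 to 129 counts per library. The groups overlapped, and the highest value was that of WT on day 36. The log2 fold change was -0.21 ± 0.27 (edgeR adjusted p = 0.659).

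The shared receptor chain was the most abundant of the 9 transcripts. Il6st (ENSMUSG00000021756, chromosome 13, 112464069 to 112510086, plus strand), which encodes gp130, was at 491, 328 and 745 CPM in WT on days 33, 36 and 42. In KO it was at 621, 793 and 744 CPM. The genotypes were level on day 42, with a ratio of 0.999 (interval 0.982 to 1.02), and KO stood above WT on day 36, with a ratio of 2.42 (2.37 to 2.47). The spread within WT was larger than within KO, the highest library being 2.27 times the lowest against 1.28 times. The log2 fold change of 0.47 ± 0.29 did not pass the test (edgeR adjusted p = 0.361).

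Il6ra (ENSMUSG00000027947, chromosome 3, 89864058 to 89913196, minus strand) encodes the chain that binds IL-6. It measured 10.5, 9.75 and 10.5 CPM in WT against 6.79, 6.20 and 6.97 CPM in KO. The 3 KO values lay below the 3 WT values, and the spread within each genotype was small, 10.2 ± 0.436 and 6.65 ± 0.407 CPM (n = 3 each). Il6ra fell by 0.62 ± 0.11 on the log2 scale (edgeR adjusted p = 0.0243). On single days the KO to WT ratio was 0.646, 0.636 and 0.665, nearly the same on each day. The call was kept without KO day 33 and without WT day 42 and lost without any of the other 4 libraries, WT of days 33 and 36 and KO of days 36 and 42 (log2 fold changes -0.66 to -0.57 over all 6 fits, adjusted p up to 0.117). It was also lost with library totals as the only scaling (-0.51, adjusted p = 0.0562). With those 4 libraries left out in turn, 254, 738, 24 and 68 of all genes were called, against 1503 with all 6. Macrophages carry this receptor chain as well. On day 42, where the macrophage marker sum was at 10.3 CPM in WT and 6.90 CPM in KO, the log2 difference of Il6ra was -0.59, against -0.63 on day 33, where the sums were 119 and 56.0 CPM. Those sums were largely Lyz2 on day 33 and largely other markers on day 42, so they are no even measure of macrophages. The part of macrophages in the Il6ra difference was not tested.

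Lifr (ENSMUSG00000054263, chromosome 15, 7129558 to 7197489, plus strand), the receptor chain for LIF, was at 21.0, 13.2 and 25.2 CPM in WT. In KO it was at 14.2, 7.73 and 12.0 CPM, lower than WT on each of the 3 days, although the KO library of day 33 was above the WT library of day 36. The KO to WT ratio was 0.678, 0.587 and 0.477 on days 33, 36 and 42. The log2 fold change was -0.80 ± 0.31 (edgeR adjusted p = 0.153), which did not pass the test. With day as a factor, which compares the genotypes within days, Lifr was called (-0.80, edgeR adjusted p = 0.038). The ligand Lif and its receptor chain thus had estimates of opposite sign, of which that of Lif passed the test.

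Osmr (ENSMUSG00000022146, chromosome 15, 6813576 to 6874969, minus strand), the chain for oncostatin M, measured 152, 95.9 and 167 CPM in WT against 178, 124 and 85.0 CPM in KO. KO was above WT on days 33 and 36 (ratios 1.17 and 1.29) and below it on day 42 (0.510, interval 0.489 to 0.532). The log2 fold change was -0.10 ± 0.31 (edgeR adjusted p = 0.866), and the change per day differed by -0.14 ± 0.06 (unadjusted p = 0.0658, adjusted p = 0.643). In WT, Il6st, Lifr and Osmr were each lowest on day 36 and highest on day 42. In KO, Lifr was lowest on day 36, Osmr on day 42 and Il6st on day 33.

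Socs3 (ENSMUSG00000053113, chromosome 11, 117966078 to 117970047, minus strand) encodes the inhibitor that binds gp130 and JAK kinases. It measured 21.1, 24.4 and 11.6 CPM in WT against 23.2, 24.9 and 8.32 CPM in KO. Both genotypes were lowest on day 42, and the genotypes overlapped. The log2 fold change was -0.03 ± 0.45 (edgeR adjusted p = 0.98). From day 36 to day 42 Socs3 went to 0.477 times its level in WT (interval 0.424 to 0.535) and to 0.334 times in KO (0.292 to 0.382). Fos and Junb, genes that growth factors and cytokines induce within minutes, were chosen after their values were seen and were also lowest on day 42. Fos measured 149, 189.9 and 9.09 CPM in WT against 191, 108 and 5.60 CPM in KO on days 33, 36 and 42. Junb measured 101, 160.3 and 18.0 CPM in WT against 114, 72.7 and 25.5 CPM in KO.

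**Figure D2:**
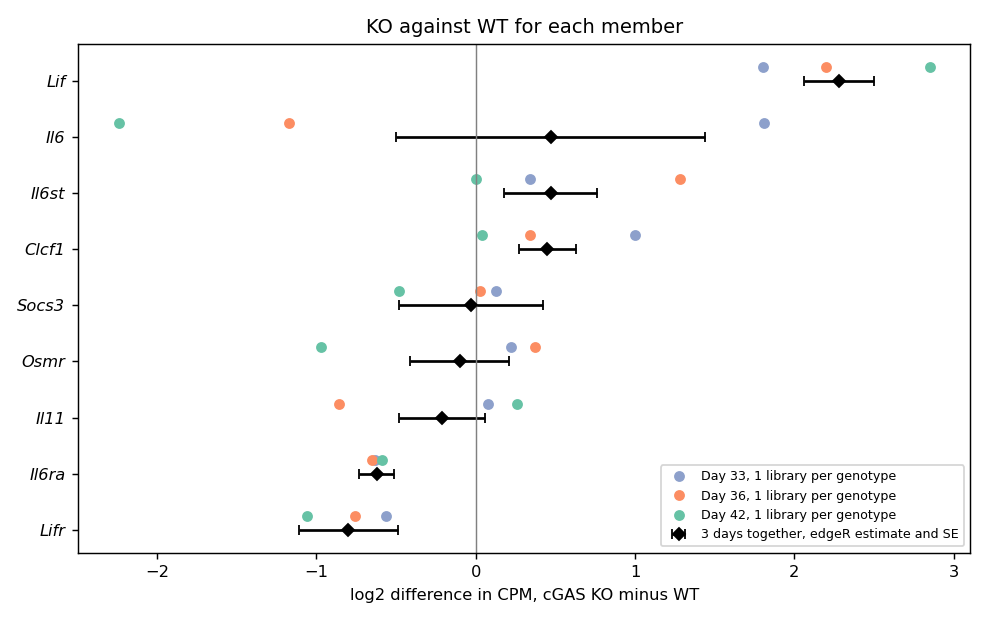
Difference between cGAS KO and WT in log2 CPM (horizontal axis) for each gene (vertical axis). Diamonds with bars are the edgeR estimate over the 3 days ± SE (n = 3 libraries per genotype) and circles the single days (1 library per genotype); the 3 days of Il6 lay at 1.81, -1.17 and -2.24, those of Il6ra within -0.65 to -0.59.

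Counted by single days, with a difference of at least 2-fold and at least 5 CPM in the higher library, 3 of the 8 genes that reached 5 CPM were higher in KO on day 33 (Lif, Il6 and Clcf1) and 0 were lower. Of all genes that reached 5 CPM on that day, 2.48% were higher and 4.1% lower. On day 36, 2 of 7 were higher (Lif and Il6st) and 0 lower, beside 2.96% and 4.67% of all genes. On day 42, 1 of 7 was higher (Lif) and 1 lower (Lifr), beside 3.03% and 6.5%. With 1 library per group these counts have no replicate check. Clcf1 on day 33 lay on the 2-fold limit, with a log2 difference of 1.0. Osmr on day 42 lay just under it at -0.97. Il6 on days 36 and 42 did not reach 5 CPM in either genotype and was not counted.

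Between days within a genotype, the comparisons share libraries and are given side by side. In WT, 0 of 7 genes passed the 2-fold limit from day 33 to day 36, where 0.326% of all genes were higher and 0.995% lower. From day 36 to day 42 in WT, Il6st was higher and Socs3 lower, 1 of 7 each way, beside 4.37% and 2.48% of all genes. From day 33 to day 42 in WT 0 of 7 passed, beside 3% higher and 2.07% lower. In KO, Il6 was lower on day 36 than on day 33, 1 of 8, and 0 were higher, beside 2.34% lower and 1.09% higher. From day 36 to day 42 in KO Socs3 was lower, 1 of 7, with 0 higher, beside 0.491% and 0.414%. From day 33 to day 42 in KO Il6, Osmr and Socs3 were lower, 3 of 8, and 0 higher, beside 2.62% and 1.45%. Osmr was at 0.479 times its day 33 level there (interval 0.459 to 0.499), close to the limit.

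Compared per length (CPM per kilobase of gene model, mean ± SD over 3 libraries), Il6st led in both genotypes, at 46.9 ± 18.9 in WT and 64.7 ± 7.99 in KO. In WT the order then was Osmr at 11.4 ± 3.09, Clcf1 at 7.23 ± 1.55, Socs3 at 6.58 ± 2.29, Lif at 4.6 ± 0.982, Lifr at 1.91 ± 0.591, Il11 at 1.63 ± 0.513, Il6 at 1.49 ± 0.29 and Il6ra at 1.22 ± 0.0518. Only the steps from Il6st to Osmr and from Lif to Lifr separated neighbours whose 3 values did not overlap in WT. In KO, Lif moved to the second place at 22.4 ± 4.37, with its 3 values below those of Il6st and above those of Osmr at 10.6 ± 3.83. Clcf1 followed at 9.86 ± 1.39, and its 3 values lay above those of Socs3 at 6.49 ± 3.15. The remaining neighbours, Il6 at 2.06 ± 2.70, Il11 at 1.41 ± 0.179, Lifr at 1.1 ± 0.32 and Il6ra at 0.791 ± 0.0484, overlapped in turn. Among the ligands, Clcf1 thus had the highest mean per length in WT and Lif in KO. These levels count all transcripts of a gene, and 27.9 ± 8.31% of the Clcf1 counts in WT went to its coding transcript Clcf1-201. The gene model can be longer than the transcripts that carry most counts, so the order and the gaps hold for this length only. For Osmr the model has 12130 bases, against 5509 for Osmr-201, which carried 92.9 ± 0.756% of its counts in KO. The Il6 model has 2432 bases, against 656 and 967 for Il6-202 and Il6-204, the transcripts with its largest mean shares.

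**Figure D3:**
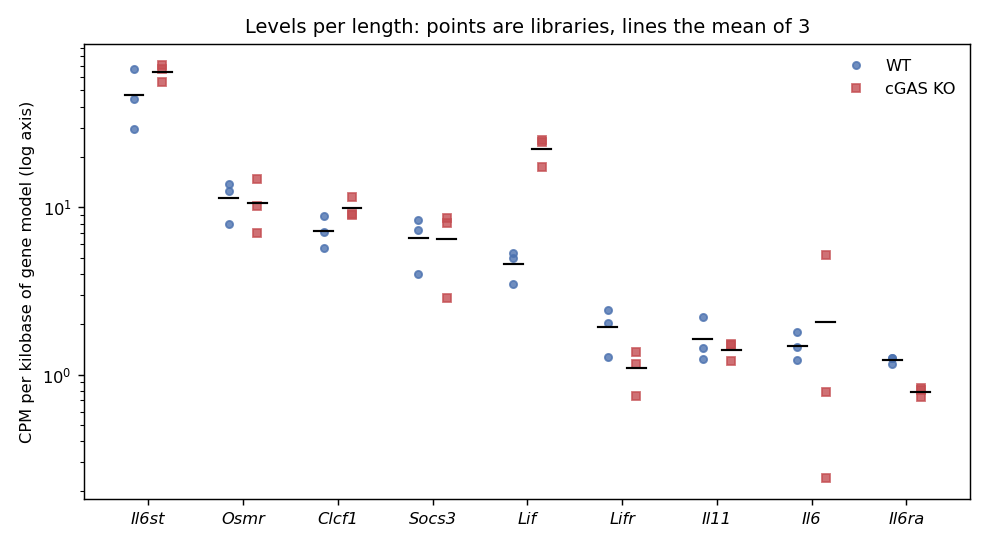
Level per length (CPM per kilobase of gene model, log axis) of each gene in the 3 WT libraries (circles) and the 3 cGAS KO libraries (squares); horizontal lines are the means of 3. Il6st was highest in both genotypes, Lif was second in KO at this length, and the 3 KO values of Il6 spread from 0.24 to 5.17.

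The transcript table held 37 transcripts of the 9 genes, and 20 of them carried at least 5% of their gene's counts in a library. Their names and coding lengths were taken from GENCODE M21, in which all 20 were found. Of the Lif counts, 84.6 ± 3.89% in WT and 82.4 ± 0.807% in KO (n = 3 each) went to Lif-201, with 474 coding bases, and nearly all others to Lif-202, with 609. Both transcripts of Lif were thus higher in KO, with 439.5 to 906 counts of Lif-201 per WT library against 2080.4 to 3532 per KO library, and 90.9 to 184 counts of Lif-202 against 447 to 796. Of the Clcf1 counts, 27.9 ± 8.31% in WT and 23.5 ± 6.76% in KO went to the coding transcript Clcf1-201. The others went mainly to a transcript with a retained intron and to one annotated for nonsense-mediated decay. Of the Lifr counts, 6.74 ± 4.61% in WT and 7.62 ± 4.41% in KO went to Lifr-202, whose 2157 coding bases are fewer than the 3276 of the other Lifr transcripts listed. With counts divided by transcript length, the share of Lifr-202 was 18.3 ± 11.7% in WT and 20.0 ± 10.6% in KO.

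Il6st counts divided between Il6st-201 and Il6st-203, which have the same coding length of 2751 bases. The share of Il6st-203 was 29.5, 28.5 and 27.9% in WT and 31.0, 32.6 and 32.6% in KO on days 33, 36 and 42. The KO shares lay above the WT shares, by 3.42 percentage points on average. Its exact two-sided permutation p was 0.1, the smallest that 3 against 3 allows, and 0.706 after adjustment over the 20 transcripts. The 2 Il6st transcripts were the 2 of 20 that reached this smallest p, and as shares of 1 gene they mirror each other. Per transcript length, 3 of 23 transcripts reached it, both of Il6st and Osmr-202. Il6 counts were spread over 4 transcripts, with 0 to 216 counts each in a library, and their exact p-values were 0.4 to 0.5.

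Other ligands and receptors of the family were read from a list of 12 genes, of which 5 passed the filter on low counts. Cntfr fell, 1 of 5 called lower and 0 called higher, beside 4.65% and 4.07% of all genes, and the median log2 fold change of the 5 was -0.59. Cntfr (chromosome 4, 41657497 to 41697089), the chain that CLCF1 binds, measured 4.53, 3.53 and 1.72 CPM in WT against 0.329, 0.56 and 0.406 CPM in KO. These levels of Cntfr came from 212, 154 and 60 counts in WT and from only 11, 15 and 16 counts in KO. The log2 fold change of Cntfr was -2.92 ± 0.43 (edgeR adjusted p = 0.015).

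The 3 KO values of Cntfr lay below the 3 WT values, and 34.3% of all genes tested had ranges apart. The call was lost without WT day 33, KO day 36 or KO day 42 (adjusted p up to 0.0795). These fits called 254, 24 and 68 of all genes, against 1503 with all 6 libraries.

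The receptor chains of IL-11, Il11ra1 and Il11ra2, are near-identical copies, so reads could be split between them and their values are uncertain. Il11ra1 measured 18.0, 13.5 and 25.5 CPM in WT against 13.8, 11.8 and 12.0 CPM in KO (-0.60 ± 0.23, edgeR adjusted p = 0.157). Il11ra2 had a log2 fold change of -0.59 ± 0.21 (edgeR adjusted p = 0.139). Ctf1, which encodes the ligand cardiotrophin-1, measured 3.16, 2.25 and 5.70 CPM in WT against 5.09, 5.41 and 6.69 CPM in KO (0.63 ± 0.35, edgeR adjusted p = 0.293). Il27ra, a receptor chain for interleukin-27, was at 0.373 to 1.29 CPM over the 6 libraries (0.05 ± 0.47, edgeR adjusted p = 0.961). The ligand genes Osm, Cntf, Ctf2, Il27, Ebi3 and Il31 and the receptor gene Il31ra lay below the filter. Osm, the ligand of the abundant Osmr, was at 0.214 CPM in the WT library of day 33, at 0.0688 CPM in that of day 36 and at 0 in the other 4. A count of 0 allows a level of up to 0.0641 to 0.112 CPM, depending on the library (3 counts, counting error only).

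**Figure D4:**
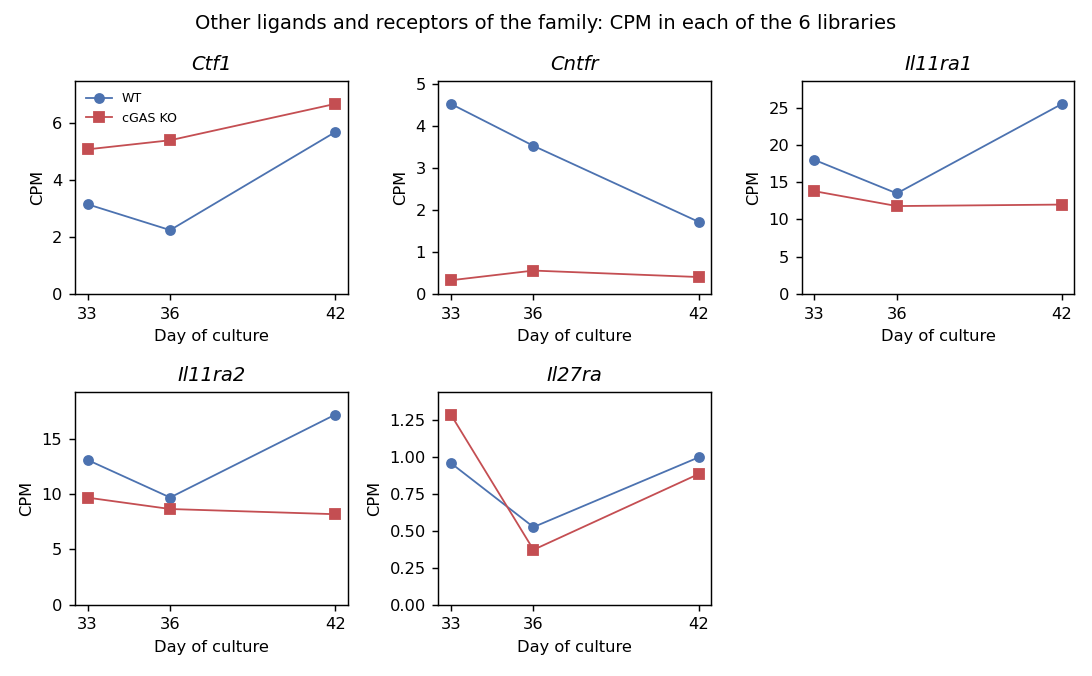
CPM (vertical axis, from 0) of the 5 other ligands and receptors of the family that passed the filter, against the day of culture, in WT (circles) and cGAS KO (squares); each point is 1 library. Cntfr lay at 0.329 to 0.56 CPM in KO against 1.72 to 4.53 CPM in WT.

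Downstream of the receptors, none of the 21 JAK-STAT signalling genes and inhibitors was called, all of which passed the filter (edgeR, 0 of 21; 2 of 21 at an unadjusted p below 0.05, against 27.3% of all genes; median -0.01). By DESeq2, which called 16.6% of all genes, 1 of the 21 was called, lower in KO (Socs5, an inhibitor of the same family as Socs3). Jak1, the main kinase on gp130, was at 349.8 to 404 CPM in WT and 311 to 368 CPM in KO (edgeR adjusted p = 0.276). Stat3 measured 234, 208 and 249.8 CPM in WT against 215, 211 and 143 CPM in KO (-0.28 ± 0.17, edgeR adjusted p = 0.344), with its lowest value in KO on day 42. The closest relatives of Socs3 in the cytokine response, Socs1, Socs2 and Cish, had adjusted p-values of 0.204, 0.852 and 0.619. Of 21 genes known to be induced through STAT3, 18 were tested and 0 called by edgeR, with a median of -0.21. At an unadjusted edgeR p below 0.05 there were 3 of 18, against 27.3% of all genes. By DESeq2 the same 3 genes were called, 16.7% of the 18 against 16.6% of all genes. They were Timp1, an inhibitor of matrix proteases, at 0.53 ± 0.16 (edgeR adjusted p = 0.0921), the IL-4 receptor chain Il4ra at -0.66 ± 0.21 (0.108) and the adhesion molecule Icam1 at -1.99 ± 0.70 (0.129). Saa3, Lcn2 and Steap4, acute-phase genes of this response, lay below the filter.

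Of 12 genes that control Il6 transcription or the decay of its RNA, or encode its inducers, 9 were tested, 1 rose and 0 fell by edgeR, beside 4.07% higher and 4.65% lower of all genes. At an unadjusted p below 0.05 there were 3 of 9, against 27.3% of all genes. DESeq2 called 2 of 9, against 16.6% of all genes, Arid5a higher and the interleukin-1 receptor Il1r1 lower. Arid5a, an RNA-binding protein that stabilises Il6 mRNA, measured 7.33, 8.09 and 7.37 CPM in WT against 13.4, 15 and 14.8 CPM in KO. It rose by 0.92 ± 0.11 (edgeR adjusted p = 0.00955), with no overlap between genotypes, as for 34.3% of all genes tested. Its call was lost without WT day 33, KO day 36 or KO day 42 (adjusted p up to 0.0613), fits that called 254, 24 and 68 of all genes. Zc3h12a, the nuclease that degrades Il6 mRNA, had a log2 fold change of -0.41 ± 0.27 (edgeR adjusted p = 0.378), and Rela, an NF-kB subunit, 0.04 ± 0.09 (0.829). Il1a, Il1b and Tnf, the cytokines known to induce Il6, were at 0 to 0.662 CPM and lay below the filter. The 4 genes of receptor shedding, Adam10, Adam17, Rhbdf1 and Rhbdf2, were tested and 0 were called, with 0 at an unadjusted p below 0.05 and 0 called by DESeq2 (log2 fold changes -0.07 to 0.37, median 0.08).

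The genes whose log2 CPM was most like each ligand over the 6 libraries were found among 10857 genes (10858 for Il11). These had passed the filter on low counts and reached 5 CPM, and genes with predicted names, such as those of Gm or Rik form, were left out. Likeness is Pearson's r over n = 6 libraries, given as a description, since genes of these libraries share depth, culture and genotype. It takes no account of the size of a change. Most like Lif were Bub1, a kinase of the mitotic checkpoint (r = 0.9991), Nt5c3b (0.9986) and Fmr1, which encodes the RNA-binding protein FMRP (0.9985). Fmr1 was at 91.6 to 133 CPM in WT and 329 to 423 CPM in KO. Nt5c3b changed less, with 24.1 to 26.4 CPM in WT and 33.8 to 37.5 CPM in KO. An r above 0.9 with Lif was found for 8.67% of the genes, so the pattern was a common one. Il6 was most like Plod3, a lysyl hydroxylase (0.9910), Ebf2, a transcription factor (0.9892), and Gdf15, a stress-induced cytokine (0.9805), and 0.636% of genes had an r above 0.9. Plod3 ran only from 206 to 324 CPM over the 6 libraries, against 0.583 to 12.6 CPM for Il6.

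Ebf2 in KO was at 8.35, 1.27 and 0.406 CPM on days 33, 36 and 42, against 1.94, 2.09 and 1.92 CPM in WT. It reached the 5 CPM minimum in the KO library of day 33 alone, as did Gdf15, so both entered this comparison through the library in which Il6 was highest. Gdf15 was at 5.74, 1.72 and 0.735 CPM in KO and 1.95 to 2.35 CPM in WT. Il11 was most like Plod1, Ankrd13b and Bmp2k (0.9802, 0.9595 and 0.9572; 0.175% of genes above 0.9). Clcf1 was most like Cd59b, Gpsm1 and Dgkg (0.9902, 0.9852 and 0.9828), and 0.939% of genes had an r above 0.9. Cd59b and Dgkg reached 5 CPM in the KO library of day 33 alone (7.54 and 6.22 CPM). Both thus entered this comparison through the library in which Clcf1 was highest.

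**Figure D5:**
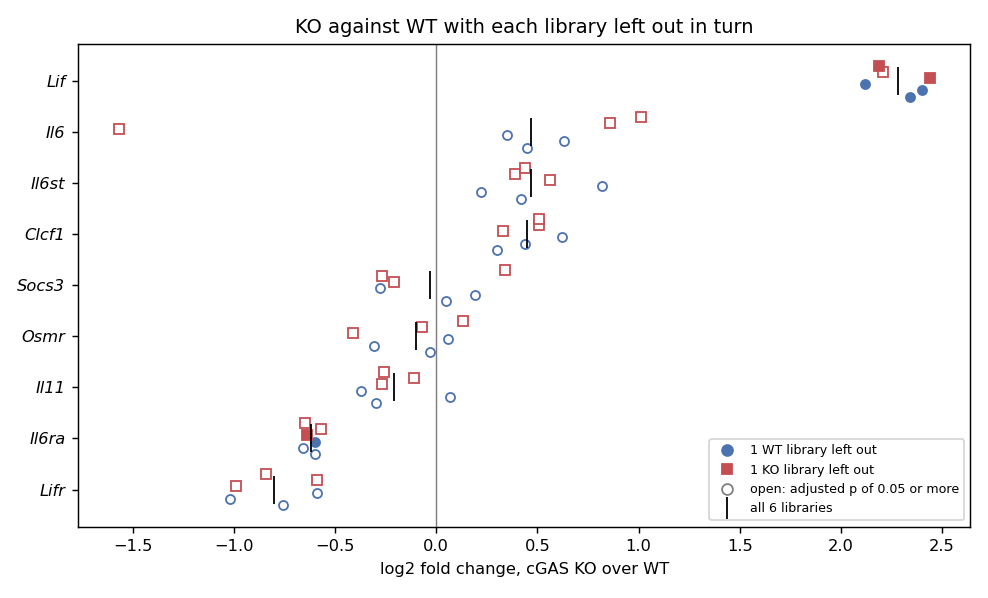
Log2 fold change of KO over WT (horizontal axis) of each gene with each of the 6 libraries left out in turn, WT as circles and KO as squares; open symbols have an edgeR adjusted p of 0.05 or more and vertical ticks give the value from all 6 libraries. Lif stayed between 2.12 and 2.44, Il6ra between -0.66 and -0.57, and Il6 moved from 0.47 to -1.57 without KO day 33.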

How the data were processed

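Per the file headers and their values, the deposited gene and transcript tables hold fractional estimated counts that the authors had not normalized. The submitters' processing notes name mm10, Bowtie2 2.2.1 and limma 3.18.13 without roles. The counting program, annotation release and strand setting: not given in the sources used here. A further 48 RPKM columns were not used. The 4 columns of each genotype and day were summed, rounded and counted as 1 library. Genotypes were compared in R 4.3.3 with edgeR 4.0.16 (TMM factors 0.927 to 1.08, filterByExpr, robust quasi-likelihood test, Benjamini-Hochberg over 17233 genes). The genotype by day term was fitted the same way. CPM are counts over library totals of tested genes times TMM factors, with a prior count of 2 on the log2 scale. SE is the absolute log2 fold change over the square root of F. Fits were tested on simulated data. Alternatives were DESeq2 1.42.0, limma-voom 3.58.1, other scalings and filters, day as a factor, passage in place of day, 24 separate columns, and left-out libraries and columns. Members, lists and tests were chosen with earlier results of these data known. Named were all members, up to 4 called genes of each list, genes needed for a ligand and receptor pair, and the 3 genes most like each ligand. List genes named without a call were chosen after their values were seen. 1 gene of a list is not reported here and is in none of the list counts.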

Additional observations from a re-analysis of the deposited data

Results flagged for a closer look

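Il6 went opposite ways between genotypes on different days, by at least 2-fold each way and with counting intervals off a ratio of 1. The log2 difference of KO from WT was 1.81 on day 33, -1.17 on day 36 and -2.24 on day 42. With 1 library per genotype and day, the difference between days was tested only as a change per day (edgeR adjusted p = 0.609; DESeq2 adjusted p = 0.0325).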

How the results depend on the processing

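The count of genes called over the 3 days was 1503, 2855 by DESeq2, 11107 with 24 separate columns, 11103 with the replicate block, and 24 to 1811 when 1 library or column number was left out. The 2 members called became 1 with library totals only (Il6ra lost), beside 1657 of 17233 genes. With day as a factor 3 members were called (Lifr gained), beside 1338 of 17233 genes. With 24 columns 8 members were called without or with the replicate block, beside 11107 and 11103 of 15279 genes. With 1 library or column number left out, 0 to 2 members were called. Same-numbered columns of different groups correlated at a mean r of 0.0108 (-0.0291 to 0.0545) and so share only a number. For the genotype by day term DESeq2 called 129 genes and 1 member where edgeR called 0 and 0. Passage number rises by 1 every 3 days and gave the same calls. Il6 turned to -0.62 with limma-voom, -0.49 with day as a factor and -0.58 in both fits of 24 columns, and Socs3 to 0.09 with library totals. With 1 library or column number left out, Il6 ran from -1.57 to 1.01, Il11 from -0.37 to 0.07, Osmr from -0.41 to 0.13 and Socs3 from -0.28 to 0.34. The cause was not tested. Library totals alone moved the median of all genes from -0.007 to 0.107. The share of the called genes that were higher in KO moved from 46.6 to 61.7%. Lif, Clcf1, Il6st, Il6ra and Lifr kept their sign in all of these fits. Below about 100 counts per library, as for Il11, late Il6 and Cntfr in KO, counting error limits what can be seen.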
